A study of Mus musculus with 3 samples.

Results

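Gja5 arterial endothelial cells were blood vessel cells of the inflamed knee synovium that carried the arterial connexin Gja5, and 61 of the 38722 barcodes kept from the 3 libraries met their rule. They were chosen by the UMI counts (unique transcript molecules) of each barcode. A member had at least 3 of the 7 endothelial genes Pecam1, Cdh5, Kdr, Tie1, Emcn, Egfl7 and Plvap, at least 1 UMI of Gja5, at least 2 UMIs of Cxcl12, no UMI of the lymphatic regulator Prox1, and at most 2 of the 5 cycling genes Mki67, Top2a, Ube2c, Cenpf and Birc5. Those 15 genes therefore chose the cells, and their values are given as a description only. Replicates 1, 2 and 3 gave 16, 17 and 28 members.

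All cells came from the inflamed knee synovium of female wild type C57BL/6 mice, 8 weeks old, whose arthritis was brought on by collagen and antibodies (C&AIA). The mice had 100 µg of type II collagen on day 0, 1 mg of antibodies against collagen on day 21 and lipopolysaccharide (LPS) on day 22, and tissue was taken in the effector phase. Each library pooled 2 mice, so the 3 libraries held 6 mice. No untreated group was part of the study as analysed here, so arterial cells were set against other endothelial cells of the same libraries and never against healthy tissue.

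Arteries carry blood to a tissue under pressure. Their endothelial cells acquire and keep an arterial identity through Notch signalling, SoxF transcription factors and flow. They are joined by gap junctions made of the connexins Gja5 and Gja4 and carry the ligand ephrin-B2, while the orphan receptor Nr2f2 maintains the venous state. In synovium, as in other tissues, leukocytes are known to leave the blood mainly through post-capillary venules, whose endothelium carries selectins and the chemokine-binding receptor Ackr1.

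The libraries held 99782608 to 116125707 UMIs over 11602 to 15263 barcodes, of which 20 to 41 per library were left out for too few genes or too many mitochondrial UMIs. The labels state 10668 to 14363 cells. Barcode names were running numbers and not sequences, so barcodes shared between libraries could not be counted from them. No barcode profile occurred in more than 1 library. Arterial cells were deep, with a median of 18816 UMIs and 4478 genes and a range of 1757 to 82568 UMIs.

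Cells that met the rule were rare. They made up 0.134%, 0.147% and 0.184% of the kept barcodes in replicates 1, 2 and 3, which averaged 0.155% ± 0.0257 (SD, n = 3 libraries). The exact Clopper-Pearson 95% intervals, which cover counting error only, ran from 0.0767% to 0.218%, 0.0857% to 0.235% and 0.122% to 0.265%. Among the 1157 endothelial cells with at least 0.2% of their UMIs from the 7 endothelial genes, the 58 members that met this limit made up 4.17%, 4.0% and 6.97%. How dissociation and capture bear on these shares was not tested.

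The levels of the genes in the rule follow from the selection and are given as a description. Cdh5, the cadherin of endothelial junctions, was seen in 57 of the 61 cells with a median of 12 UMIs, and Pecam1 in 60 with a median of 17. Gja5 itself was sparse, since 31 cells held exactly 1 UMI and the highest held 24. Cxcl12, the chemokine that binds Cxcr4, had a median of 12 UMIs and reached 195. Prox1 was at 0 by the rule. Of the other 5 lymphatic markers looked for, which the rule did not use, Lyve1, Ccl21a, Mmrn1 and Reln were at 0 and Pdpn was seen. The venular markers Ackr1 and Selp were found in 4 and 6 members, with at most 2 UMIs of Ackr1 and 15 of Selp in a cell.

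The label was checked on arterial genes that the rule did not use. Of the 61 cells, 46 held all of Gja4, Sema3g and Sox17, which are known arterial genes, 8 held a pair of them, 3 held 1 and 4 held none. A median of 12 genes of an arterial identity list of 19 genes were seen per cell, with a range of 4 to 16. To compare cells at equal depth, each cell was thinned to 2000 UMIs, which left out 1 arterial cell. Gja4 was then seen in 66.7% of 60 arterial cells, against 1.34% of 373 venular-type cells, 10.99% of 537 capillary-type cells and 0.20% of 1000 leukocytes, which should lack it. Before thinning the shares were 88.5%, 10.5%, 22.1% and 1.06%, at median depths of 18816, 16928, 7602 and 3533 UMIs. The leukocytes were gated by Ptprc and by no UMI of the 7 endothelial genes. That gate can itself lower their share, so it is no independent measure of free RNA. Gja4 is not specific to endothelium. It was seen in 32.7% of 355 thinned mural cells and in 57.5% before thinning. The mural cells were gated by their own genes and by at most 1 of the 7 endothelial genes. Other arterial genes lay closer to capillary-type cells after thinning: Sema3g at 33.3% against 12.3%, Sox17 at 30% against 18.6% and Hey1 at 8.33% against 3.54%. Stmn2 was further apart, at 50% against 6.33%.

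Gja5, which chose the cells, and Gja4 code for the 2 connexins of arterial gap junctions, so their promoters are shown. The sequences are the 250 bases before the annotated start in RefSeq (GRCm38.p6, an earlier build than the GRCm39 that the submitters' notes name). The Gja5 window is chr3:97032152-97032401 on the plus strand and the Gja4 window is chr4:127314040-127314289 on the minus strand. Capitals mark the letters ACAAAG, a core that SoxF factors are known to bind.
Gja5: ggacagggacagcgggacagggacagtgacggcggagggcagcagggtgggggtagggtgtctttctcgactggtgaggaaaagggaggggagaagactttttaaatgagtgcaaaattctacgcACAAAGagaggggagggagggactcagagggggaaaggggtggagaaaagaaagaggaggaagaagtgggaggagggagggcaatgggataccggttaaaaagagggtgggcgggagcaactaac
Gja4: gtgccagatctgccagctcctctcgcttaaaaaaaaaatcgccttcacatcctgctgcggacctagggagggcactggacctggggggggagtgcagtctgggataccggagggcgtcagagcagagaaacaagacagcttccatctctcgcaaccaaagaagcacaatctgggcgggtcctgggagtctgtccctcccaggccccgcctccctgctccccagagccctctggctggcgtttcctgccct

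ACAAAG stood once in the Gja5 window, 125 bases before the start, and not in the Gja4 window. On either strand it was found in 16.5% of 32851 such windows. The other letters searched on both strands, TGGGAA (in 21.6% of windows), the core that the Notch effector Rbpj is known to bind, and ACAATG (in 10.7%), another Sox core, were in neither window. The windows of Sema3g and Efnb2 were searched too and held none of these letters, nor ACAAAG. Stmn2, Sox17 and Hey1 were looked for and had no window. A match describes the letters and shows no binding.

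Fewer of the members near the thresholds of the rule held other arterial genes. In the 9 members with 2 or 3 UMIs of Cxcl12, Gja4 was seen in 6 and Hey1 in 2, at a median depth of 6720 UMIs. In the 10 cells just outside, with Gja5 but 0 or 1 UMI of Cxcl12, Gja4 was seen in 3 and Hey1 in 0, at a median depth of 15119 UMIs. Of the 30 members with 2 or more UMIs of Gja5, 29 held Gja4 and all 30 held Sema3g. Their summed Gja4 level was 863 CPM (UMIs per 1000000 UMIs of the summed cells), and it was 535 CPM in the 31 members with 1 UMI of Gja5. The 500 endothelial cells with Cxcl12 but no Gja5 had 65.9 CPM of Gja4, and 31.4% of them held it. The rule places a cell in which Gja5 was not detected outside the arterial class, and the capillary-type class below takes such cells in.

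The 61 cells were not alike in their markers of other cell types. Pericytes and smooth muscle cells wrap the endothelium of arteries, and 5 members, 2 in replicate 2 and 3 in replicate 3, had more than 0.1% of their UMIs from 10 genes of such mural cells (0.341% to 0.967%). All 5 held Myh11, the smooth muscle myosin, which had 0 UMIs in the 53 members that passed both limits. Rgs5, a pericyte gene, stood at 3185 CPM in the 5 cells and at 22.2 CPM in the 53. A further 3 members had under 0.2% of their UMIs from the endothelial genes. Col1a1, the fibroblast collagen, stood at 16566 CPM in those 3 cells and at 1488 CPM in the 53, and 2 of the 3 had a doublet score of 0.2 or more. All 16 members of replicate 1 lay within both limits. Members also differed in depth. Within both limits, 1 member of replicate 2 held 77841 of the 359461 arterial UMIs of its library, with 1 UMI of Gja4 and 0 of Sema3g. How far single deep cells weigh on the sums was not tested.

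**Figure D1:**
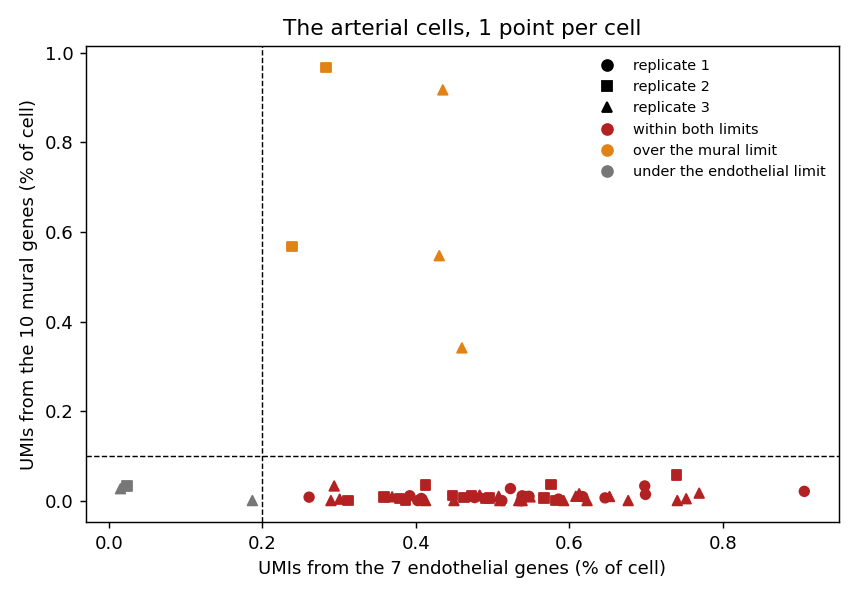
Share of each arterial cell's UMIs from the 7 endothelial genes (x axis, percent) and from the 10 mural genes (y axis, percent), 1 point per cell, with the shape giving the replicate and dashed lines at 0.2% and 0.1%. The 53 cells within both limits lie along the bottom, 5 cells lie above the mural limit and 3 lie left of the endothelial limit.

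As summed per library, the mural list stood at 80.8, 445 and 1326 CPM in arterial cells of replicates 1, 2 and 3, against 163, 260.5 and 138 CPM in venular-type cells and 206, 285 and 428 CPM in capillary-type cells. All 10 of its genes were seen in each class. Acta2, the smooth muscle actin, was called higher over both classes by the test described below (2.46 ± 0.42 and 2.07 ± 0.30), at 22.7, 122 and 160.0 CPM in arterial cells, against 19.9, 16.8 and 13.0 CPM and 21.1, 20.5 and 29.3 CPM in venular-type and capillary-type cells, and Cspg4 and Myh11 were called higher over capillary-type cells. Acta2 was at 825 CPM in the 5 members over the mural limit and at 25.7 CPM in the 53 members inside both limits, and Myh11 was at 409 CPM in the 5 and at 0 UMIs in the 53. Without the cells outside either limit Acta2 was no longer called, at a log2 fold change of 0.97 over venular-type and 0.89 over capillary-type cells (adjusted p = 0.104 and 0.15 in edgeR), and Cspg4 and Myh11 did not pass the filter on low counts. The 8 fibroblast genes summed to 3317 to 6695 CPM in arterial cells, 5931 to 8603 CPM in venular-type and 5090 to 6551 CPM in capillary-type cells. The 5 neutrophil genes summed to 1916 to 4051 CPM in arterial cells, 1981 to 5723 CPM in venular-type and 4150 to 6068 CPM in capillary-type cells. Each result below was therefore also computed without the cells outside either limit, in both classes, and values without these mixed cells are given where they change a call.

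Arterial cells were compared with 2 kinds of endothelial cell from the same libraries. Venular-type cells passed the endothelial part of the rule, held no Gja5 and had 2 or more UMIs of Ackr1 plus Selp. There were 380 of them (135, 148 and 97), with a median of 16928 UMIs. Capillary-type cells had no Gja5, Ackr1 or Selp, and 1430 cells met these conditions. Of these, 827 (57.8%) had under 0.2% of their UMIs from the endothelial genes, with a median of 0.0634% over the 1430 against 0.496% in arterial cells. The fibroblast list summed to 25069 to 36673 CPM in them.

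The capillary-type class was therefore also limited to the 603 cells (202, 192 and 209) with at least 0.2%, and it is this class that is meant below. The limit was set after the data were seen. Against all 1430 cells, 1806 of 11174 genes (16.2%) passed, of which 677 (6.06%) were higher in arterial cells and 1129 (10.1%) lower, and no gene is read from that comparison. Neither class was named from more than the genes that gated it, and each can hold cells of other vessels.

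UMIs were summed per library and class, and a gene counted as called where its adjusted p was under 0.05 and its log2 fold change was 1 or more in size in edgeR's quasi-likelihood test with the library as a block. Fold changes are log2, arterial over the other class, with their SE, and levels are CPM in replicates 1, 2 and 3. The SE was derived as the size of the fold change over the square root of the test's F statistic. Over venular-type cells 489 of 8818 genes (5.55%) passed, with 278 (3.15%) higher and 211 (2.39%) lower in arterial cells. Over capillary-type cells 307 of 9159 (3.35%) passed, with 170 (1.86%) higher and 137 (1.50%) lower. An unadjusted p under 0.05, in either direction, was found for 1757 of the 8818 and 1536 of the 9159 genes. With the library as a block, the class difference was measured within 3 libraries of 2 pooled mice each. The variance of each gene was drawn toward the trend over all genes. The p-values therefore do not rest on the spread among a gene's own libraries alone.

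Arterial identity genes were higher as a group. Of the 15 tested genes of that list, 10 were called higher and none lower over each class, and they were the same 10 genes: Gja4, Sema3g, Hey1, Unc5b, Bmx, Efnb2, Stmn2, Sox17, Vegfc and Tm4sf1. The list's median log2 fold change was 2.81 over venular-type cells, beside -0.01 over all genes tested, and 1.51 over capillary-type cells, also beside -0.01. With DESeq2 and without the mixed cells, 10 were again called over each class. When each arterial cell was matched to a cell of like depth, however, the Hey1 call over capillary-type cells was lost. The 4 untested genes were Hey2, Gkn3, Cytl1 and Alpl, which were too low for the test.

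Gja4, the partner connexin of Gja5, had 806, 779 and 643 CPM in arterial cells, against 13.6, 7.58 and 11.9 CPM in venular-type and 87.3, 86.7 and 103 CPM in capillary-type cells. The lowest arterial library was above the highest of either other class. How many of all tested genes lay without overlap was not counted. Of the called genes, 484 of 489 over venular-type and 301 of 307 over capillary-type cells went the same way in all 3 libraries. The log2 fold change of Gja4 was 6.09 ± 0.20 over venular-type cells (edgeR adjusted p = 3.26e-09) and 3.03 ± 0.14 over capillary-type cells (edgeR adjusted p = 5.05e-10). Mural cells, gated by their own genes, also held Gja4, at 274 CPM. Without the mixed cells, which include those 5 with mural genes, its fold change was 6.43 over venular-type and 3.37 over capillary-type cells.

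Sema3g codes for a secreted semaphorin of arterial endothelium. It stood at 245, 401 and 294 CPM in arterial cells, against 7.67, 5.89 and 10.2 CPM in venular-type and 71.6, 54.8 and 60.0 CPM in capillary-type cells (5.31 ± 0.23 and 2.35 ± 0.17). Stmn2, a regulator of microtubules known from neurons, was at 323, 581 and 364 CPM in arterial cells, against 59.6, 35.1 and 42.9 CPM and 42.2, 43.9 and 52.6 CPM in venular-type and capillary-type cells, so both other classes were at a like level (3.17 ± 0.24 and 3.18 ± 0.17).

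Sox17, a SoxF factor that sets arterial fate, had 174, 245 and 193 CPM in arterial cells, against 22.3, 35.9 and 27.7 CPM in venular-type cells (2.81 ± 0.16) and 101, 103 and 76.0 CPM in capillary-type cells (1.16 ± 0.15). Efnb2, the ephrin-B2 ligand that marks arteries, had 152, 125 and 118 CPM in arterial cells, against 12.5, 12.1 and 13.0 CPM in venular-type cells (3.36 ± 0.20) and 50.5, 40.0 and 49.4 CPM in capillary-type cells (1.51 ± 0.17). For both genes the capillary-type libraries lay between the other classes. Its receptor Ephb4, which marks veins, was not called: it had 184, 150.2 and 158 CPM in arterial cells, against 140.4, 165 and 150.3 CPM in venular-type and 163, 169.7 and 157 CPM in capillary-type cells (0.08 ± 0.16 and 0.04 ± 0.15).

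Vegfc, a lymphatic growth factor, averaged 32.0 ± 10.8 CPM in arterial cells, against 4.66 ± 0.898 CPM in venular-type and 3.33 ± 1.28 CPM in capillary-type cells (SD, n = 3 libraries), with fold changes of 2.73 ± 0.37 and 3.27 ± 0.39. Unc5b, a netrin receptor of arteries and tip cells, averaged 71.3 ± 16.3 CPM in arterial cells, against 2.66 ± 0.903 CPM in venular-type and 24.2 ± 0.466 CPM in capillary-type cells (4.58 ± 0.34 and 1.60 ± 0.23). Bmx, a kinase of arterial endothelium, was uneven between libraries, with 25.3, 75.1 and 28.1 CPM, against 6.27, 2.53 and 2.26 CPM and 6.37, 5.72 and 6.87 CPM in venular-type and capillary-type cells (3.48 ± 0.50 and 2.68 ± 0.38). The 5 genes tested and not called were Nrp1, Mecom, Sox18, Sox7 and Tsc22d1, so the Sox17 relatives Sox18 (0.47 ± 0.14 and 0.14 ± 0.12) and Sox7 (0.77 ± 0.30 and 0.50 ± 0.27) missed the call over either class.

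**Figure D2:**
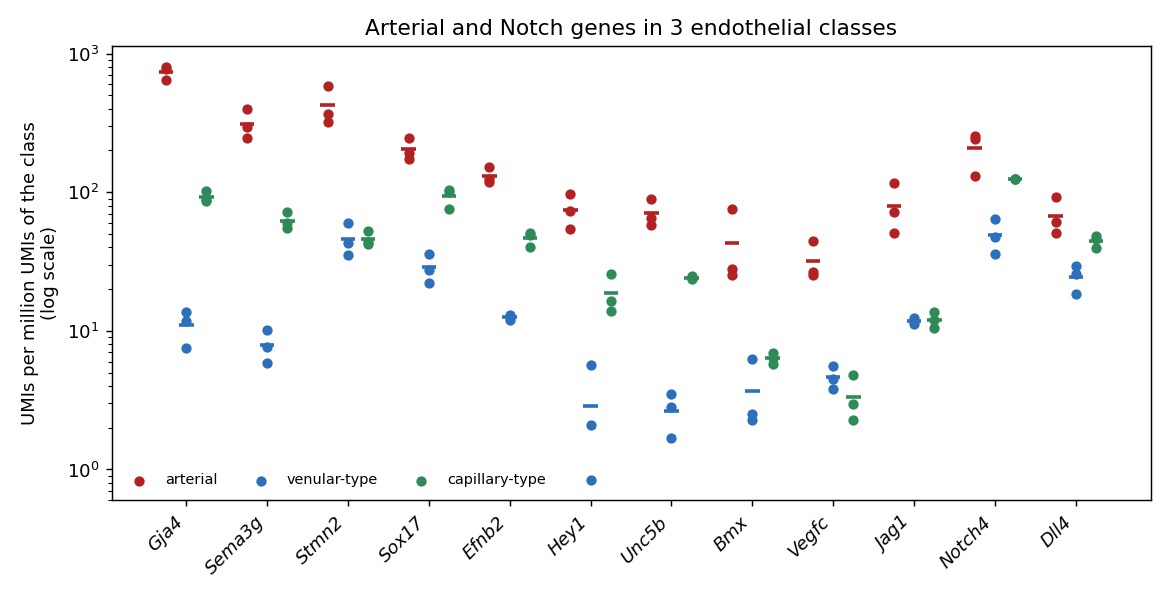
Level of 12 arterial and Notch genes in CPM (y axis, log scale) in arterial, venular-type and capillary-type cells, 1 point per library and a line at the mean. For Notch4 and Dll4 the lowest arterial library is close to the capillary-type level, and the other genes show a gap. The 12 genes were picked for display, and how many of all tested genes show such a gap was not counted.

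Notch genes were higher in part. Of 14 tested genes, 5 were called higher over venular-type cells (Hey1, Jag2, Jag1, Notch4 and Dll4) and 3 over capillary-type cells (Hey1, Jag1 and Jag2), with none lower, and the list's median was 0.62 and 0.60. Among the ligands, Jag1 had 50.5, 117 and 72.1 CPM in arterial cells, against 11.8, 11.2 and 12.4 CPM and 13.7, 11.9 and 10.5 CPM in venular-type and capillary-type cells (2.70 ± 0.28 and 2.72 ± 0.28). Mural cells held Jag1 too, at 56.0 CPM. Jag2 had 98.5, 139 and 94.9 CPM in arterial cells, against 9.06, 12.6 and 10.2 CPM and 22.1, 41.0 and 30.2 CPM in venular-type and capillary-type cells (3.35 ± 0.22 and 1.86 ± 0.19).

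Dll4, the Notch ligand of arteries and tip cells, had 60.6, 91.8 and 51.0 CPM in arterial cells, against 18.5, 25.8 and 29.4 CPM in venular-type cells (1.42 ± 0.26) and 46.1, 39.6 and 48.5 CPM in capillary-type cells (0.58 ± 0.23, not called). The call over venular-type cells was lost when each arterial cell was matched to a cell of like depth, at a fold change of 1.51. Notch4, an endothelial receptor, had 253, 242 and 132 CPM, with replicate 3 the lowest, against 35.9, 47.4 and 63.9 CPM in venular-type cells (2.06 ± 0.27) and 124, 125 and 124 CPM in capillary-type cells (0.73 ± 0.17, not called). Without replicate 3, Notch4 was called over capillary-type cells at 1.01.

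Notch1, the main receptor of arterial endothelium, was not called over either class, at 157, 161 and 181 CPM in arterial cells, against 136, 109 and 140.1 CPM and 129.9, 132 and 149.7 CPM in venular-type and capillary-type cells. Its edgeR adjusted p was 0.212 over venular-type and 0.286 over capillary-type cells. Of the targets, Hey1, a transcription repressor, had 73.3, 97.4 and 54.5 CPM in arterial cells, against 2.09, 0.842 and 5.65 CPM in venular-type cells (4.87 ± 0.47) and 25.5, 13.8 and 16.5 CPM in capillary-type cells (2.03 ± 0.27). Its call over capillary-type cells was lost in depth-matched cells, at 1.41. Hes1 (0.89 ± 0.24 and 0.63 ± 0.23) and Nrarp (0.17 ± 0.21 and 0.02 ± 0.21) were not called.

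Venous genes were lower over venular-type cells. Of 13 tested genes 11 were called lower and none higher, with a median of -1.48. The venular gate used Ackr1 and Selp, which are not counted. Nr2f2, the venous regulator, had 40.4, 52.9 and 72.1 CPM in arterial cells, against 285, 265 and 289.9 CPM in venular-type cells (-2.36 ± 0.18). The groups did not overlap, and how many of all tested genes show this was not counted. Over capillary-type cells, at 67.2, 131 and 98.4 CPM, it was not called (-0.76 ± 0.20). Mural cells held 751 CPM of Nr2f2, and without the mixed cells it was called lower over capillary-type cells too, at -1.28, as it was without replicate 3 (-1.03).

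Vwf, the platelet-binding factor of endothelial granules, had 73.3, 225 and 165 CPM in arterial cells, against 773, 541 and 605 CPM in venular-type cells (-2.11 ± 0.27). It was lowest in replicate 1. Over capillary-type cells, at 50.02, 56.7 and 75.5 CPM, it was called higher (1.32 ± 0.20), and the call was lost in depth-matched cells (0.94) and without replicate 2 (0.96). Il6st, the signalling chain of the interleukin-6 receptor, was called lower over venular-type cells, at 197, 181 and 134 CPM in arterial cells, against 584, 499.6 and 591 CPM in venular-type cells (-1.76 ± 0.16). Aplnr, the apelin receptor, was called lower over both classes (-1.30 ± 0.13 and -1.03 ± 0.13), though not over capillary-type cells without replicate 2 (-0.91) or 3 (-0.97).

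**Figure D3:**
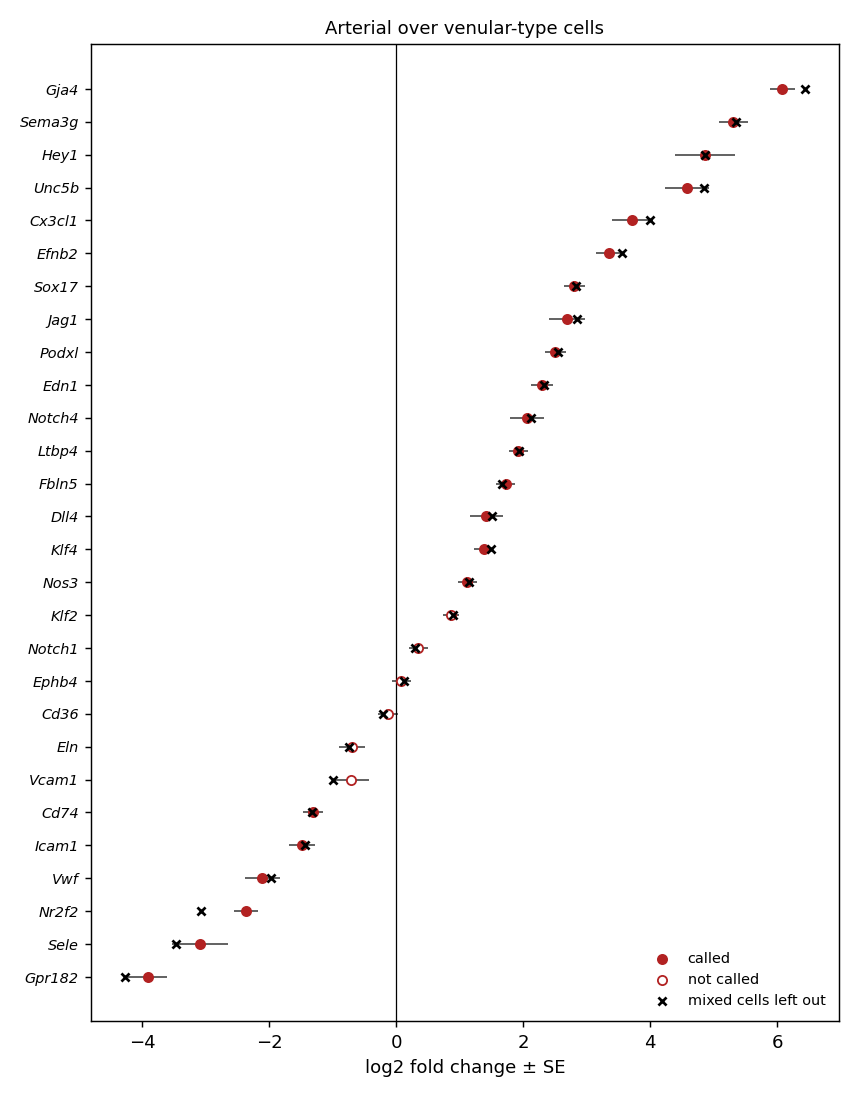
Log2 fold change of 28 genes in arterial over venular-type cells (x axis) with SE bars derived from edgeR's F statistic, filled where called and open where not, with a cross for the value without mixed cells. Gja4, Sema3g and Hey1 lie furthest to the right and Gpr182, Sele and Nr2f2 furthest to the left, and Nr2f2 moves further left without mixed cells.

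Capillary and tip cell genes moved in both directions. Of 14 tested capillary genes, 3 were called higher over venular-type cells (Slc9a3r2, Tcf15 and Btnl9) and 3 lower (Car4, Aqp1 and Meox2). The Btnl9 call was lost without replicate 3 (1.21) and, with that of Tcf15, in depth-matched cells (0.56 for Btnl9 and 1.13 for Tcf15). Of 15 over capillary-type cells, Slc9a3r2 was called higher and Car4 lower. Car4, a carbonic anhydrase of capillaries, had 5.05, 8.35 and 10.5 CPM in arterial cells, against 33.8, 56.4 and 41.8 CPM and 70.1, 98.2 and 44.9 CPM in venular-type and capillary-type cells (-2.42 ± 0.34 and -2.97 ± 0.34). Slc9a3r2, a scaffold protein, had 778, 879 and 883 CPM in arterial cells, against 113, 124 and 160.5 CPM and 355, 324 and 379 CPM in venular-type and capillary-type cells (2.66 ± 0.14 and 1.30 ± 0.11). Aqp1, a water channel, had 338, 175 and 272 CPM in arterial cells, against 1219, 1244 and 991 CPM in venular-type cells (-2.18 ± 0.18).

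Rgcc and the fatty acid receptor Cd36, both capillary genes, were not called over either class. Rgcc had 121, 172 and 316 CPM in arterial cells, against 135, 184 and 161 CPM and 299, 395 and 359 CPM in venular-type and capillary-type cells, and its fold change over capillary-type cells of -0.79 ± 0.18 passed the call without replicate 3, at -1.22. Cd36 had 399, 359 and 392.04 CPM in arterial cells, against 377, 543 and 341 CPM and 494, 659 and 362 CPM in venular-type and capillary-type cells.

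Of the tip cell list, which marks sprouting vessels, Pdgfb was called higher (1.63 ± 0.16) and Angpt2 lower (-1.96 ± 0.45) among 12 genes tested over venular-type cells. Over capillary-type cells none of 14 was called higher and Trp53i11 (-2.23 ± 0.31) and Angpt2 (-1.71 ± 0.45) were called lower. Pdgfb, which recruits mural cells, had 318, 370.0 and 311 CPM in arterial cells, against 86.8, 101 and 133 CPM and 268, 251 and 289 CPM in venular-type and capillary-type cells. Angpt2, a ligand that destabilises vessels, rested on 8 UMIs in arterial cells, and its calls were lost with DESeq2 over both classes, over venular-type cells without replicate 1 (-1.52) and over capillary-type cells without any 1 replicate (-2.04 to -1.43).

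The tip cell genes Esm1 and Apln were seen in 3 and 4 of the 61 cells. Apln had 2.53, 55.6 and 1.76 CPM in arterial cells, so that nearly all of it came from replicate 2, against 28.2, 40.1 and 48.0 CPM and 38.7, 56.2 and 27.9 CPM in venular-type and capillary-type cells. It was not called (-1.25 ± 0.59 and -1.27 ± 0.46), but without replicate 2 it was called lower over both, at -4.23 and -3.86.

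Genes of the elastic artery wall were seen in most members, with Fbln5 in 50 and Eln in 44 of 61 cells. Venular-type cells held them too, Fbln5 in 61.8% and Eln in 77.4%, against 82.0% and 72.1% of arterial cells. Over capillary-type cells 5 of 15 genes were called higher (Fbln5, Ltbp4, Eln, Fbln2 and Clu) and none lower. The Clu call was lost without replicate 2 (0.95). Over venular-type cells Ltbp4 and Fbln5 were called higher and Bgn lower. The list's median log2 fold change was -0.22 over venular-type and 0.51 over capillary-type cells. Fbln5, which assembles elastic fibres, had 285, 484 and 281 CPM in arterial cells, against 107, 115 and 84.2 CPM and 115, 96.3 and 93.4 CPM in venular-type and capillary-type cells (1.72 ± 0.16 and 1.78 ± 0.17). Ltbp4, which binds latent TGF-beta and elastin, had 831, 1065 and 1051 CPM in arterial cells, against 234, 209 and 326 CPM and 278, 257 and 415 CPM in venular-type and capillary-type cells (1.92 ± 0.15 and 1.68 ± 0.13).

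Eln, elastin itself, did not follow the same order. It had 93.5, 189 and 121 CPM in arterial cells, against 225, 189 and 215 CPM in venular-type and 35.3, 57.7 and 47.6 CPM in capillary-type cells. It was called higher over capillary-type cells (1.52 ± 0.17) and not called over venular-type cells (-0.70 ± 0.21, edgeR adjusted p = 0.0554), where without replicate 2 it was called lower at -1.06. Mural cells held 183 CPM of Eln. Bgn, a matrix proteoglycan, was called lower over venular-type cells (-1.28 ± 0.21) but not without replicate 1 (-0.93).

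Some genes of flow response and vascular tone were higher. Over venular-type cells 5 of 13 were called higher (Edn1, Ednrb, Klf4, Thbd and Nos3) and Ptgs1 lower, and over capillary-type cells Edn1, Klf4 and Nos3 were called higher and none lower. Edn1, the constricting peptide endothelin-1, had 174, 214 and 132 CPM in arterial cells, against 32.1, 36.8 and 33.9 CPM and 50.02, 37.2 and 75.1 CPM in venular-type and capillary-type cells (2.30 ± 0.18 and 1.69 ± 0.23). Nos3, the endothelial nitric oxide synthase, which relaxes vessels, had 260.2, 225 and 202 CPM in arterial cells, against 110.5, 94.0 and 105 CPM and 105, 114 and 113 CPM in venular-type and capillary-type cells (1.12 ± 0.15 and 1.07 ± 0.15). Its call over capillary-type cells was lost without replicate 1, at 0.92.

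The flow-induced factors Klf4 and Klf2 stood on both sides of the threshold. Klf4 had 222, 278 and 373 CPM in arterial cells, against 96.2, 116 and 112 CPM and 122, 125 and 122 CPM in venular-type and capillary-type cells (1.38 ± 0.15 and 1.26 ± 0.15). Klf2 had 644, 512 and 633 CPM in arterial cells, against 314, 304 and 341 CPM and 369, 315 and 350.2 CPM in venular-type and capillary-type cells. Its adjusted p passed over both classes (edgeR adjusted p = 5.94e-04 and 1.72e-04), and its fold changes of 0.87 ± 0.13 and 0.82 ± 0.12 were below the size asked for. Thbd, the anticoagulant thrombomodulin, averaged 195 ± 24.6 CPM in arterial and 77.2 ± 7.46 CPM in venular-type cells (1.30 ± 0.16). Ptgs1, a prostaglandin synthase, averaged 15.9 ± 10.1 CPM in arterial and 70.8 ± 10.9 CPM in venular-type cells (-2.18 ± 0.34).

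**Figure D4:**
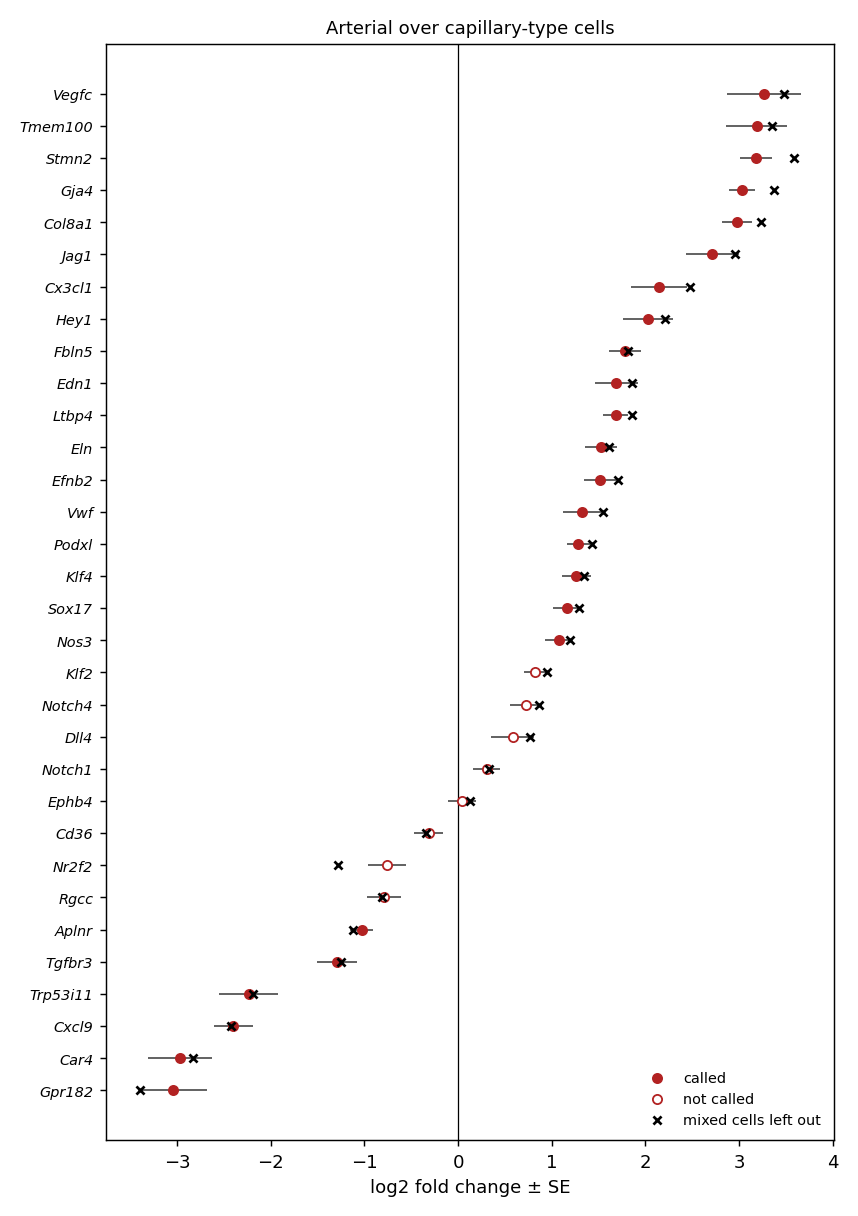
Log2 fold change of 32 genes in arterial over capillary-type cells (x axis) with SE bars derived from edgeR's F statistic, filled where called and open where not, with a cross for the value without mixed cells. Vegfc, Tmem100, Stmn2 and Gja4 lie furthest to the right and Gpr182 and Car4 furthest to the left, and Nr2f2 passes -1 without mixed cells.

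Of 10 junction genes tested, Gja4 was called over both classes, and Cldn5, the tight junction claudin of endothelium, over venular-type cells (2.05 ± 0.14), at 523, 695 and 496 CPM in arterial cells, against 140.4, 137 and 124 CPM in venular-type cells. Gja1, another vascular connexin, was not called (-0.22 ± 0.17 and -0.18 ± 0.17), with 114, 131 and 80.9 CPM in arterial cells, against 125, 129.7 and 111 CPM and 138, 112 and 119.9 CPM in venular-type and capillary-type cells.

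Genes by which leukocytes hold on to endothelium were mixed. Over venular-type cells 2 of 14 were called higher (Podxl and Icam2) and 4 lower (Madcam1, Glycam1, Sele and Icam1). Madcam1, Glycam1 and Sele passed the filter on low counts through venular-type cells, so their calls are a description. Over capillary-type cells Podxl alone of 12 was called, higher. Sele, the E-selectin on which leukocytes roll, had 12.6, 0 and 3.52 CPM in arterial cells, against 60.3, 39.0 and 36.2 CPM in venular-type cells (-3.09 ± 0.45). Icam1, the ligand of leukocyte integrins, had 48.0, 27.8 and 40.4 CPM in arterial cells, against 122, 105 and 96.1 CPM in venular-type cells (-1.48 ± 0.20). Vcam1 was not called over either class, at 30.3, 19.5 and 17.6 CPM in arterial cells, against 37.6, 33.4 and 35.6 CPM and 17.2, 14.8 and 19.2 CPM in venular-type and capillary-type cells.

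Madcam1 and Glycam1 are ligands of homing receptors. Madcam1 had 0 UMIs in arterial cells, against 12.9, 12.3 and 9.61 CPM in venular-type cells. Glycam1 had 0, 52.9 and 0 CPM in arterial cells, all from replicate 2, against 174, 140.1 and 233 CPM in venular-type cells (-3.67 ± 0.63), and its call was lost with DESeq2 and in depth-matched cells (-2.92). Podxl, a sialomucin, had 1162, 1049 and 744 CPM in arterial cells, against 164, 157 and 184 CPM and 469, 363 and 393 CPM in venular-type and capillary-type cells (2.50 ± 0.17 and 1.28 ± 0.12).

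Of 13 chemokines and cytokines tested over each class, Cx3cl1 alone was called higher. Cx3cl1, the membrane-bound chemokine fractalkine, had 50.5, 66.8 and 47.5 CPM in arterial cells, against 3.48, 4.21 and 4.52 CPM and 15.7, 8.58 and 13.3 CPM in venular-type and capillary-type cells (3.72 ± 0.33 and 2.14 ± 0.30). The interferon-induced chemokine Cxcl10 was called lower over both classes (-1.75 ± 0.40 and -1.53 ± 0.43), on 11 UMIs in arterial cells. If Cxcl12 was not asked for in the rule, its fold change turned to 0.66 and 0.82 and was not called. With DESeq2 neither Cxcl10 call was made, and both were lost without replicate 3 (-1.29 and -1.50), that over capillary-type cells also without replicate 2 (-1.06). Cxcl9 was called lower over capillary-type cells (-2.40 ± 0.20), at 75.8, 25.0 and 33.4 CPM in arterial cells, against 295, 148 and 253 CPM in capillary-type cells.

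The inflammatory chemokines Cxcl1 and Ccl2 were not called over either class. Cxcl1 had 25.3, 38.9 and 21.1 CPM in arterial cells, against 38.7, 26.9 and 20.3 CPM and 28.9, 16.2 and 20.6 CPM in venular-type and capillary-type cells. Ccl2 had 22.7, 50.1 and 24.6 CPM in arterial cells, against 53.7, 23.0 and 42.4 CPM and 47.1, 49.6 and 60.0 CPM in venular-type and capillary-type cells, and without replicate 2 it was called lower over capillary-type cells at -1.14. Il6 had 2.53, 27.8 and 10.5 CPM in arterial cells, against 15.0, 7.58 and 4.52 CPM in venular-type cells, without a call (0.60 ± 0.61). In coagulation, Plat, the plasminogen activator, was called higher over both classes (2.31 ± 0.27 and 1.14 ± 0.27), over capillary-type cells not with DESeq2, without replicate 2 (0.92) or without replicate 3 (0.97).

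BMP and TGF-beta genes, which act on vessel stability, included 7 of 14 called higher over venular-type cells and 6 of 15 over capillary-type cells, with 1 lower in each. Acvrl1, the endothelial BMP receptor Alk1, had 159, 169.7 and 222 CPM in arterial cells, against 64.5, 69.3 and 74.0 CPM and 81.9, 82.0 and 89.3 CPM in venular-type and capillary-type cells (1.37 ± 0.15 and 1.15 ± 0.15). The inhibitory factors Smad6 (2.25 ± 0.31 and 1.57 ± 0.29) and Smad7 (1.19 ± 0.20 and 1.09 ± 0.19) were called higher over both, Smad6 over capillary-type cells not without replicate 3 (1.24). The ligand Tgfb2 averaged 39.6 ± 16.5 CPM in arterial cells, against 4.86 ± 2.45 CPM and 13.5 ± 3.32 CPM in venular-type and capillary-type cells (2.95 ± 0.37 and 1.53 ± 0.30).

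The co-receptor Tgfbr3 was called lower over both (-1.39 ± 0.26 and -1.29 ± 0.21). In depth-matched cells 2 of 11 genes of this list were called higher over capillary-type cells, and Acvrl1 (0.94) and Smad7 (0.62) were not. Among VEGF and angiopoietin genes, Nrp2, a co-receptor of veins and lymphatics, was called lower over both classes (-1.39 ± 0.20 and -1.26 ± 0.21), at 88.4, 41.7 and 94.9 CPM in arterial cells, against 188, 187 and 202 CPM and 175, 200.2 and 187 CPM in venular-type and capillary-type cells. Its call over capillary-type cells was lost without replicate 2 (-0.94). Of the basement membrane genes, Lamb2 (1.64 ± 0.15 and 1.40 ± 0.15) and Col18a1 (1.21 ± 0.14 and 1.26 ± 0.13) were called higher over both classes and none of 13 lower.

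Genes of antigen presentation were called lower over venular-type cells, and these calls were lost when cells with a high doublet score were left out. Of 10 MHC genes tested 4, all of class II, were called lower (Cd74, H2-Ab1, H2-Aa and H2-Eb1). Cd74, the class II chaperone, had 278, 273 and 308 CPM in arterial cells, against 817, 476 and 837 CPM in venular-type cells (-1.31 ± 0.16). A doublet score of 0.2 or more was found in 2 of 61 arterial and 33 of 380 venular-type cells. Without such cells none of the 10 was called in edgeR, 5 had an unadjusted p under 0.05 for lower, and Cd74 was at -0.62. With all cells, 1757 of 8818 genes were under that p in edgeR, in either direction. Without replicate 3 Cd74 alone was called, with H2-Ab1 at -0.91 and H2-Eb1 at -0.79. The 7 monocyte and macrophage genes summed to 568 to 1591 CPM in arterial and 1058 to 2226 CPM in venular-type cells, and their part in the class II values was not tested.

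Over capillary-type cells none of the 10 MHC genes was called with edgeR or DESeq2, with 6 and 4 at an unadjusted p under 0.05 for lower. Over all genes 1536 of 9159 were under that p in edgeR, in either direction. Without replicate 2, and without mixed cells, 1 of them was called lower. Of 11 acute-phase and stress genes, 4 were called lower over venular-type cells (Hp, Lrg1, Saa3 and Mt2). Over capillary-type cells edgeR and DESeq2 called none of them, with 2 higher and 5 lower at an unadjusted p under 0.05 in edgeR. Hp, haptoglobin, had 212, 245 and 322 CPM in arterial cells, against 609.9, 684 and 709 CPM in venular-type cells (-1.40 ± 0.14). Saa3 lost its call with DESeq2, without mixed cells (-0.82) and without replicate 1 (-0.62), Mt2 with DESeq2 and without replicate 1 (-0.68), and Lrg1 in depth-matched cells (-0.91).

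Of 11 NF-kB response genes tested none was called over venular-type cells by edgeR or DESeq2, with 4 and 1 at an unadjusted p under 0.05, all lower. Over all genes 1757 of 8818 were under that p in edgeR over venular-type cells, and 1536 of 9159 over capillary-type cells. Over capillary-type cells edgeR called Nfkbiz lower (-1.04 ± 0.25) and DESeq2 called none, with 4 in edgeR and 2 in DESeq2 at an unadjusted p under 0.05 for lower. Without replicate 3 Nfkbiz was at -0.60 and not called. Of 13 interferon-stimulated genes, Rsad2 was called higher over venular-type cells (2.12 ± 0.21), at 73.3, 106 and 73.8 CPM in arterial cells, against 17.8, 22.5 and 16.4 CPM in venular-type cells. Iigp1, an interferon-induced GTPase, was called lower over both (-1.73 ± 0.22 and -1.20 ± 0.21), over capillary-type cells not in depth-matched cells (-1.03).

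Of the dissociation genes, which tissue digestion can induce, Hspa1a was called higher over both classes (1.43 ± 0.38 and 1.51 ± 0.39) and Egr1 lower over venular-type cells (-1.01 ± 0.18). Hspa1a was not called over either class with DESeq2 or without replicate 3 (1.29 and 1.32), nor over venular-type cells without replicate 2 (1.45), and Egr1 not without replicate 1 (-0.97) or 2 (-0.86). Of 10 lipid genes, Angptl4, an inhibitor of lipoprotein lipase, was called lower over both (-1.54 ± 0.19 and -1.24 ± 0.19).

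**Figure D5:**
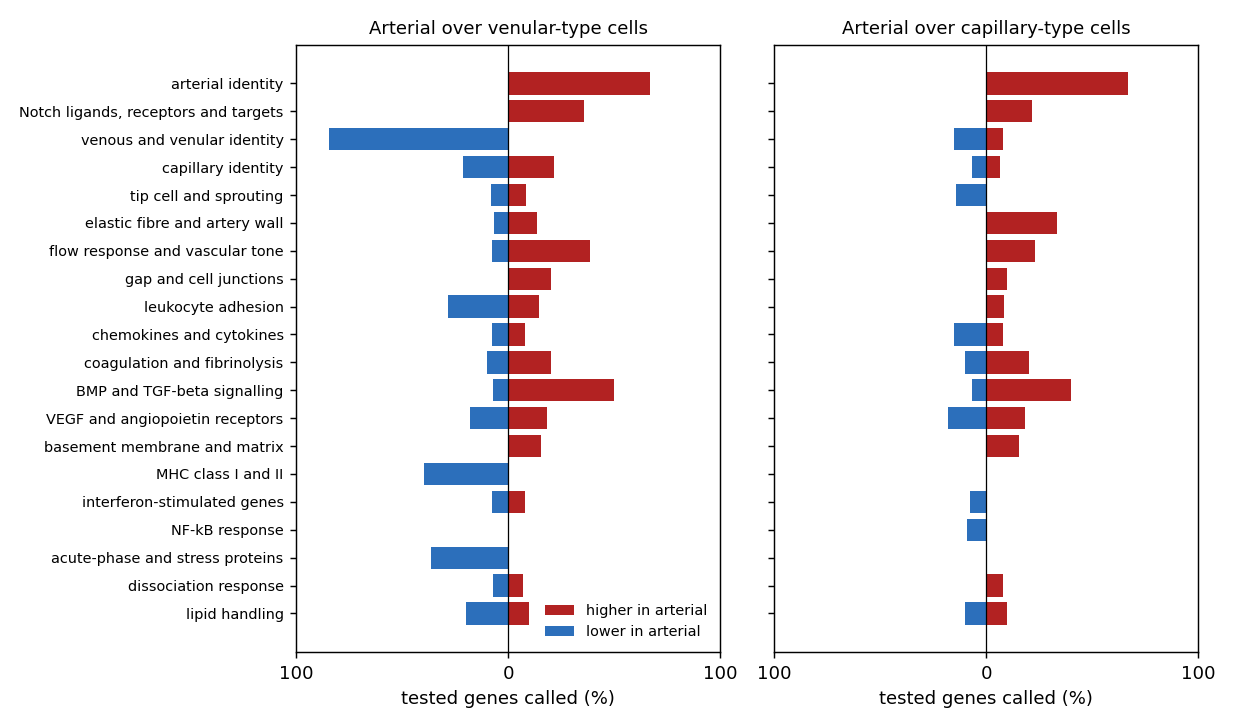
Share of the tested genes of each of 20 lists that were called higher (right, red) or lower (left, blue) in arterial cells over venular-type cells (left panel) and capillary-type cells (right panel), in percent of the genes tested. Arterial identity genes have the longest bars to the right in both panels, and venous genes the longest to the left over venular-type cells.

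Over all genes, the largest fold changes beyond the lists were in genes of low level. Over venular-type cells Car7, a carbonic anhydrase, had 37.9, 38.9 and 29.9 CPM in arterial cells, against 0, 0.561 and 0 CPM in venular-type cells. It rested on 46 and 2 UMIs, a ratio of 142 with an exact counting interval of 37.3 to 1212. Nebl, an actin-binding protein of striated muscle, rested on 66 and 3 UMIs, a ratio of 136 with an interval of 44.6 to 678. These intervals, and those below, cover counting error only and not differences between cells or libraries. Genes near 0 in 1 class, such as these, passed the filter on low counts through the other class, so such ratios are a description. Lrrc3b, Eps8l2, St8sia6 and Slc26a10 were called higher too, with fold changes of 5.53 ± 0.49 for Lrrc3b, 5.40 ± 0.48 for Eps8l2 and 5.14 ± 0.47 for St8sia6.

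On the lower side, Gpr182, a scavenger receptor for chemokines that binds Cxcl12 among others, had 7.58, 2.78 and 10.5 CPM in arterial cells, against 104, 123 and 109 CPM and 59.8, 88.2 and 51.7 CPM in venular-type and capillary-type cells (-3.91 ± 0.31 and -3.04 ± 0.36). Cadm3, an adhesion molecule, was called lower over venular-type cells (-3.57 ± 0.47). Tll1, Fjx1, Clec3b, Chp2 and Pgm5 were also called lower there, on 1 to 3 arterial UMIs each. Pooled over libraries, the ratio of venular-type over arterial cells was 33.6 for Tll1 (exact counting interval 9.24 to 278) and 13.6 for Pgm5 (4.59 to 66.2).

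Over capillary-type cells the largest rises beside Gja4, Stmn2 and Vegfc were in Slc22a4 (3.36 ± 0.46), Fgfr3 (3.30 ± 0.42), St14 (3.28 ± 0.50), Tmem100 (3.19 ± 0.32) and Col8a1 (2.98 ± 0.16). Col8a1, a short-chain collagen of vessel walls, had 255, 239 and 281 CPM in arterial cells, against 42.7, 26.7 and 32.0 CPM in capillary-type cells. Tmem100, a target of the Alk1 receptor in arterial endothelium, had 45.5, 52.9 and 40.4 CPM in arterial cells, against 5.39, 5.24 and 4.58 CPM in capillary-type cells. Neither gene's groups overlapped, but both were picked as among the largest called changes. The share of all tested genes without overlap was not counted. Slc22a4, a carnitine and ergothioneine transporter, and the membrane protease St14 were not called with DESeq2.

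Chga, a protein of secretory granules, was called lower over capillary-type cells, with 0, 2.78 and 3.52 CPM in arterial cells, against 83.9, 79.6 and 147 CPM in capillary-type cells. It rested on 3 arterial UMIs against 660, which came from 76 of the 603 capillary-type cells (12.6%), and the ratio of capillary-type over arterial cells was 46.1 with an interval of 15.7 to 224. Globin genes, which come from red blood cells, were also called lower, with Hba-a2 at -4.87 ± 0.32 and Hbb-bs at -2.77 ± 0.31. The 4 erythroid markers summed to 85.9, 108 and 51.0 CPM in arterial cells, against 1249, 211 and 1495 CPM in capillary-type cells, and Alas2 was at 0 in arterial cells. In depth-matched cells the Hbb-bs fold change was 0.38 and was not called. Prg2, an eosinophil granule protein, was called lower (-2.42 ± 0.56) on 6 arterial UMIs, and not with DESeq2 or without replicate 3 (-2.50).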

How the data were processed

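Single-cell libraries were made on a DNBelab C platform from dissociated synovium. The deposited UMI counts per gene and barcode were made by the authors with PISA 1.0, per the file headers. The submitters' processing notes name Seurat 3.0.2, R 3.6 and the GRCm39 build, and the aligner is not given in the sources used here. The deposited matrices still held barcodes down to 1000 UMIs.

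Barcodes with under 200 genes or over 20% mitochondrial UMIs were left out. Doublets were scored with Scrublet in scanpy 1.11.5 (Python 3.11.15) and kept, and leaving out scores of 0.2 or more was an alternative. No clustering was used: classes were gated by the genes given in the report. UMIs were summed per library and class and tested with edgeR 4.0.16 (R 4.3.3; TMM scaling, filterByExpr, Benjamini-Hochberg adjustment over all genes tested) and, as an alternative, DESeq2 1.42.0. The script was tested on simulated counts with a fixed dispersion, no mixed cells and no library effects beyond depth. That setting is simpler than these data, and its outcome is not given here. Both sums of a library come from the same 2 pooled mice, so the library was a block. The arterial cells gave 359461 to 568818 UMIs per library.

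The members and lists were chosen with earlier results of these data known. Genes were named where they were the called gene with the largest change of a list in either direction, among the 8 largest called changes over all genes, or on a set list. Other list genes were named after their values were seen.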

Additional observations from a re-analysis of the deposited data

How the results depend on the processing

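Over venular-type cells the 489 called genes became 265 in depth-matched cells and 21 with every cell thinned to 1000 UMIs and equal cell numbers, and leaving out 1 replicate gave 492 to 539. Over capillary-type cells the 307 called genes became 150 with DESeq2, 128 in depth-matched cells, 185 in depth-matched cells without mixed cells and 11 after thinning, and leaving out 1 replicate gave 253 to 383. Against all 1430 gated capillary-type cells, 1806 became 908 in depth-matched cells, 373 with the endothelial limit, 404 without mixed cells, 185 with both that and depth matching, and 51 after thinning, and leaving out 1 replicate gave 1368 to 1871. Fits with no replicate block gave 503, 259 and 1826 calls. The share of arterial cells was 0.0761% with 2 or more Gja5 UMIs asked for and 0.181% with Cxcl12 not required, and 0.141% to 0.165% with 1 replicate left out. Fold changes that turned sign were those of Cxcl10 with Cxcl12 not required (0.66 over venular-type and 0.82 over capillary-type cells) and of Hbb-bs over capillary-type cells (0.38 in depth-matched cells, 0.50 also without mixed cells), and the cause was not tested. The endothelial limit, the mural limit and the capillary-type class of 603 cells were chosen after seeing the data. Leaving out cells with fibroblast genes or Ptprc could not be fitted, since under 3 arterial cells were left in 2 of the libraries. The 61 cells limit the precision, and low genes rest on few UMIs.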
